A study of Mus musculus with 16 samples.

Results

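The natriuretic peptide system was followed through 7 genes: the cardiac hormone genes Nppa and Nppb, the receptor genes Npr1, Npr2 and Npr3, and the genes of the convertases Corin and Furin. They were chosen by name, for what they are known to do, with earlier results of these data known. They are 7 of the 24982 entries of the deposited count table. All 7 passed the filter on low counts, which kept 13775 genes for testing.

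Nppa and Nppb encode the precursors of atrial and B-type natriuretic peptide, which heart muscle cells release when they are stretched and which lower blood pressure by promoting salt and water loss and relaxing vessels. Corin, a serine protease on the surface of heart muscle cells, cuts the atrial precursor, and furin, a convertase of the secretory pathway, cuts the B-type precursor. NPR1 binds both hormones and makes cyclic GMP, NPR2 does the same for the related C-type peptide, and NPR3 removes the peptides by taking them up. In the adult ventricle the peptide genes are low at rest and are used as markers of load and hypertrophy.

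The samples were left ventricles of 16 C57BL/6 mice, 1 library per mouse, in 2 genotypes. The tested genotype lacked Tln2 throughout and had Tln1 deleted in cardiac fibroblasts as well (knockout, 4 females and 4 males). The other was Tln2-null with Tln1 left in place (Tln2-null, 4 females and 4 males). Tln1 and Tln2 encode talins, which couple integrins to the actin cytoskeleton. Every mouse had intraperitoneal tamoxifen over 5 days and, after 2 weeks, an osmotic pump that delivered angiotensin II (AngII), a hormone that raises blood pressure, for 8 weeks. No untreated and no Tln2-carrying group was analysed here, so no value below is a response to AngII or to the loss of Tln2. The labels do not name the driver of the fibroblast deletion.

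Library totals ran between 11161766 and 19221673 counts. Values are CPM, that is counts scaled to a common library size after TMM normalization between libraries, and 3 counts, taken as the floor, were worth 0.156 to 0.269 CPM. Whole-tissue Tln1 was at 221 to 323 CPM in knockout ventricles and 250.7 to 322 CPM in Tln2-null ventricles. These ranges overlapped, in tissue where cells other than fibroblasts keep Tln1. Tln2 reads were present in both groups, at 62.4 to 70.4 CPM in knockout and 55.6 to 76.8 CPM in Tln2-null ventricles, and gene-level counts do not show which part of the gene they come from, so they check neither label. The summed level of 5 cardiomyocyte markers was 32481 to 37877 CPM (median 36363) in knockout and 32932 to 35954 CPM (median 34453) in Tln2-null ventricles. All 5 had a higher fitted level in the knockout. The atrial markers Myl7, Sln and Bmp10 were under 1 CPM in every library and at 0 in some. The 6 atrial markers that passed the filter, of 10 listed, summed to 88.4 to 133 CPM (median 100.7) in knockout and 91.1 to 144 CPM (median 123) in Tln2-null ventricles. Of these 5 had a lower and 1 a higher fitted level in the knockout, and 0 were called. Dkk3, the 1 with an unadjusted p under 0.05, averaged 9.73 ± 5.09 CPM in knockout and 23.6 ± 14.9 CPM in Tln2-null ventricles (log2 fold change -1.30 ± 0.35, edgeR adjusted p = 0.421). The summed conduction-system markers had medians of 36.1 CPM in knockout and 41.8 CPM in Tln2-null ventricles, with 5 of 5 tested at a lower fitted level. In knockout ventricles the 6 fibroblast markers summed to 754 to 1342 CPM (median 1000.6), against 953 to 1636 CPM (median 1266) in Tln2-null ventricles. All 6 had a lower fitted level in the knockout and 4 had an unadjusted p under 0.05, against 3.17 percent of all genes in that direction, with 0 called after adjustment. In bulk tissue, fewer cells of a type and less RNA per cell cannot be told apart.

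Libraries stood apart in 2 ways that matter here. The clock genes Arntl and Ciart set 2 mice apart, knockout replicate 8, a male (Arntl 27.1 CPM, Ciart 2.86 CPM), and Tln2-null replicate 8, a female (Arntl 28.4 CPM, Ciart 1.91 CPM). In the other libraries Arntl was between 3.66 and 8.44 CPM. These 2 mice also had the highest Nppb of the series, and values of Nppb between groups are given with and without them. In 4 libraries labelled female, Y-linked reads reached 1.11 to 2.88 percent of the male mean, and values without them are given where they change a direction.

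Nppb and Nppa lie head to tail on mouse chromosome 4 (GRCm38), both on the plus strand, Nppb at chr4:147985788-147987205 and Nppa at chr4:148000722-148002079, with 13516 bp between them. Their start-site windows are shown because these are the members with a GATAA match near the start. Each RefSeq window (GRCm38.p6, plus strand) holds 250 bases before and 50 after the start, at chr4:148000472-148000771 for Nppa and chr4:147985650-147985949 for Nppb. Capitals mark matches, on either strand, to GATAA (the core bound by GATA factors), AAGTG (NK2 homeobox factors) and CATTCC (the M-CAT element of TEAD factors).
Nppa: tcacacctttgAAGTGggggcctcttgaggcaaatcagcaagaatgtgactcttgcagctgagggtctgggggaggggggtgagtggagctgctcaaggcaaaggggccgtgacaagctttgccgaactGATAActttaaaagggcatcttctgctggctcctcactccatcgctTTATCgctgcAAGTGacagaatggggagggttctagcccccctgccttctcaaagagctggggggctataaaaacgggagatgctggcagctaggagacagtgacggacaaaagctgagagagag
Nppb: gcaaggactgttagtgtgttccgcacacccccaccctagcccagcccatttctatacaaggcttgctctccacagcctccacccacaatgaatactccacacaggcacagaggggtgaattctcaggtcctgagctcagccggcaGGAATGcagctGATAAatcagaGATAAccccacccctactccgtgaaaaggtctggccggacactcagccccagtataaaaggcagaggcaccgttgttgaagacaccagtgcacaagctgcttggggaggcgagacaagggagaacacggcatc

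In the Nppa window, GATAA was found at -121 to -117 on the plus strand and at -75 to -71 on the minus strand, counted from the start, and AAGTG at -239 to -235 and -65 to -61. In the Nppb window, GATAA was found at -94 to -90 and -83 to -79, and CATTCC at -105 to -100 on the minus strand. The RefSeq start of this window lies downstream of the GENCODE start of Nppb, so these Nppb matches fall inside the gene interval given above. No matches overlapped. Of 32851 RefSeq windows of 300 bases, 25.4 percent held GATAA, 46.4 percent AAGTG and 14.7 percent CATTCC, and of the 7 members' windows 2 held GATAA (Nppa and Nppb), 2 AAGTG (Nppa and Furin) and 1 CATTCC (Nppb). The AP-1 motif TGANTCA and the CArG box of SRF, present in 7.81 and 1.63 percent of windows, were in 0 of the 7. A match is a description of letters and not a bound site.

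The other members are spread over the genome: Npr1 at chr3:90450591-90465866, Npr2 at chr4:43631935-43651244, Npr3 at chr15:11839896-11907287, Corin at chr5:72300025-72504473 and Furin at chr7:80388585-80405436. Npr2 is on the plus strand and the other 4 on the minus strand. These positions are those of whole genes. For Nppa, Npr1, Npr2, Npr3, Corin and Furin an annotated gene on the opposite strand overlaps an exon (GENCODE M21), and since the sources used here do not state whether counting used strand, reads of the pair cannot be told apart. The partner of Npr3, Gm5144, had 62 counts over all 16 libraries, and the others are not analysed here.

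Compared per kb of merged exon, the 2 hormone genes were the highest of the 7. Nppa averaged 1069 ± 465 CPM per kb (SD, n = 16 mice), rank 18 of 13648 genes with a length, and Nppb 252 ± 205 CPM per kb, rank 169. Corin followed at 64.4 ± 8.28 CPM per kb, then Npr2 at 19.2 ± 1.41, Furin at 16.4 ± 3.89, Npr1 at 7.74 ± 1.13 and Npr3 at 2.42 ± 0.44 CPM per kb. Each neighbour in this order was above the next in 16 of 16 mice, except that Nppb exceeded Corin in 15 and Npr2 exceeded Furin in 12. The order of Npr2 and Furin therefore lay within the spread between mice. It also depended on the division by length, as did that of Nppb and Corin. In CPM, Furin averaged 150.8 against 89.6 for Npr2, and Corin 347.6 against 196.6 for Nppb.

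The hormone genes were also the most variable of the 7. Around the mean of their own genotype and sex, the SD of log2 CPM was 1.28 for Nppb and 0.65 for Nppa, against a median of 0.16 over 10712 genes with at least 5 CPM. Only 13 of those genes varied more than Nppb and 99 more than Nppa. The Nppb value includes 1 Tln2-null male at 10.2 CPM, where the other males of that genotype had 101 to 236 CPM. The SD without this mouse was not computed. Furin had an SD of 0.33, Npr3 0.27, Npr1 0.24 and Corin 0.20, all above the median gene. Npr2 was the steadiest, with 0.11, and 8379 genes varied more.

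Nppa, the atrial natriuretic peptide gene, had 1164, 1230.2, 758 and 682 CPM in the knockout females and 770, 290, 577 and 840 CPM in the knockout males. In Tln2-null mice it had 676, 1389, 1899 and 739 CPM in females and 421, 1143, 1130.3 and 1083 CPM in males. The genotypes overlapped over most of their range, with the lowest mouse of all in the knockout and the highest in the Tln2-null group. The mean was 789 ± 304 CPM in knockout and 1060.1 ± 460 CPM in Tln2-null ventricles (SD over 8 mice in each). The log2 fold change was -0.45 ± 0.26 (SE) in edgeR's quasi-likelihood test (unadjusted p = 0.0991, adjusted p = 0.935). The difference did not pass the test. Without the 2 mice set apart by clock genes the log2 fold change was -0.63 ± 0.27 (edgeR, adjusted p = 0.709). It stayed between -0.63 and -0.31 over the 26 alternatives tried. The median sums of the fibroblast, atrial and conduction-system markers were also lower in knockout ventricles, and that of the cardiomyocyte markers was higher, as given above. The endocardial median was lower too, at 120 against 132 CPM. Those of endothelial (1042.5 against 998 CPM), smooth muscle and pericyte (1166.5 against 1109.8 CPM) and macrophage markers (299 against 297 CPM) were higher. The part of any of these in the Nppa values was not tested.

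Nppb, the B-type natriuretic peptide gene, had 77.5, 87.1, 179 and 93.5 CPM in the knockout females and 173, 225, 156 and 507 CPM in the knockout males. In Tln2-null mice it had 93.1, 152, 236 and 629 CPM in females and 10.2, 101, 236 and 191 CPM in males. Both genotypes held 1 mouse far above the rest, and these are the mice set apart by Arntl and Ciart. The lowest value, in a Tln2-null male, was 61.7-fold under the highest of its genotype. Means were 187 ± 139 CPM in knockout and 206 ± 187 CPM in Tln2-null ventricles, and the log2 fold change of -0.18 ± 0.57 (edgeR, adjusted p = 0.987) was smaller than its error. Without the 2 mice set apart by clock genes it was -0.04 ± 0.44. It turned positive, at 0.41, without the females with Y-linked reads, and at 0.23 with limma on the deposited normalized values.

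**Figure D1:**
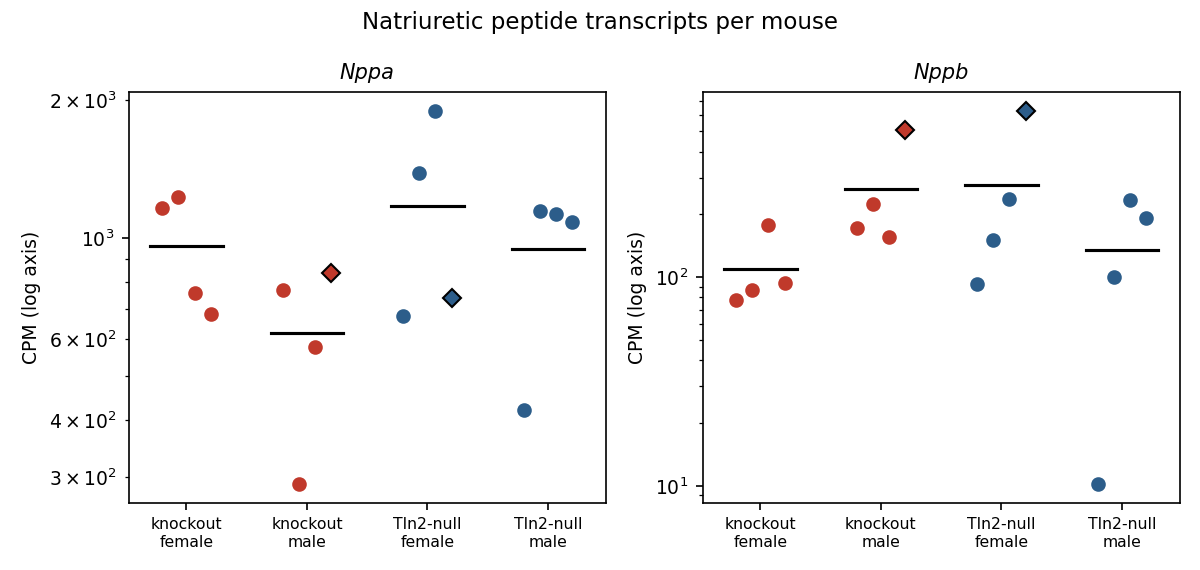
Nppa and Nppb in each mouse, in CPM on a log axis, by genotype and sex (4 mice per column); lines are group means and diamonds with a black edge are the mice set apart by clock genes. Nppb runs between 10.2 and 629 CPM and its columns overlap, as do those of Nppa between 290 and 1899 CPM.

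The balance between the hormones differed widely from mouse to mouse. The ratio of Nppb to Nppa ran between 0.0667 and 0.776 in knockout mice and between 0.0245 and 0.851 in Tln2-null mice. The mean log2 ratio was -2.23 ± 1.29 in the knockout and -2.86 ± 1.42 in Tln2-null mice (SD, n = 8 each), a difference of 0.64 with p = 0.382 in an exact two-sided permutation test over the 4900 exchanges of genotype within sex. Single mice moved this difference: it was 0.28 without Tln2-null replicate 1, 1.01 without Tln2-null replicate 8 and 0.80 without both mice set apart by clock genes, with exact permutation p between 0.113 and 0.656 when 1 mouse was left out. Across the 16 mice the hormone genes did not follow each other detectably (Pearson r = 0.22, Spearman rho = 0.05, permutation p adjusted over 21 pairs = 0.533), and r was -0.39 within the knockout and 0.60 within the Tln2-null mice. Without the Tln2-null male that was lowest of its genotype in both, r over all mice was -0.14.

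Npr1, the guanylyl cyclase receptor of both cardiac hormones, ranged between 29.9 and 43.6 CPM in knockout mice (median 35.8) and between 29.3 and 43.6 CPM in Tln2-null mice (median 39.7). Npr2, the C-type peptide receptor, ranged between 78.9 and 99.7 CPM in knockout mice (median 89.2) and between 81.9 and 105 CPM in Tln2-null mice (median 90.4). Npr3, the clearance receptor, ranged between 15.6 and 30.9 CPM in knockout mice (median 23.3) and between 16.8 and 28.7 CPM in Tln2-null mice (median 23.1). The genotypes covered nearly the same range for each receptor. Their log2 fold changes were -0.08 ± 0.10 for Npr1, -0.02 ± 0.06 for Npr2 and 0.03 ± 0.12 for Npr3, each smaller than its SE (edgeR, adjusted p = 0.956, 0.984 and 0.988). The log2 ratio of clearance receptor to signalling receptor, Npr3 to Npr1, was -0.65 ± 0.41 in knockout and -0.77 ± 0.43 in Tln2-null mice, a difference of 0.12 (exact permutation p = 0.574).

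Corin, the convertase of the atrial precursor, ranged between 255 and 390.02 CPM in knockout mice (median 368) and between 294 and 429 CPM in Tln2-null mice (median 331). Furin, a convertase of the B-type precursor and of many other secreted proteins, ranged between 93.9 and 204 CPM in knockout mice (median 134) and between 124 and 224 CPM in Tln2-null mice (median 145). Both pairs of ranges overlapped. The log2 fold change was 0.05 ± 0.09 for Corin and -0.12 ± 0.15 for Furin (edgeR, adjusted p = 0.970 and 0.955).

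**Figure D2:**
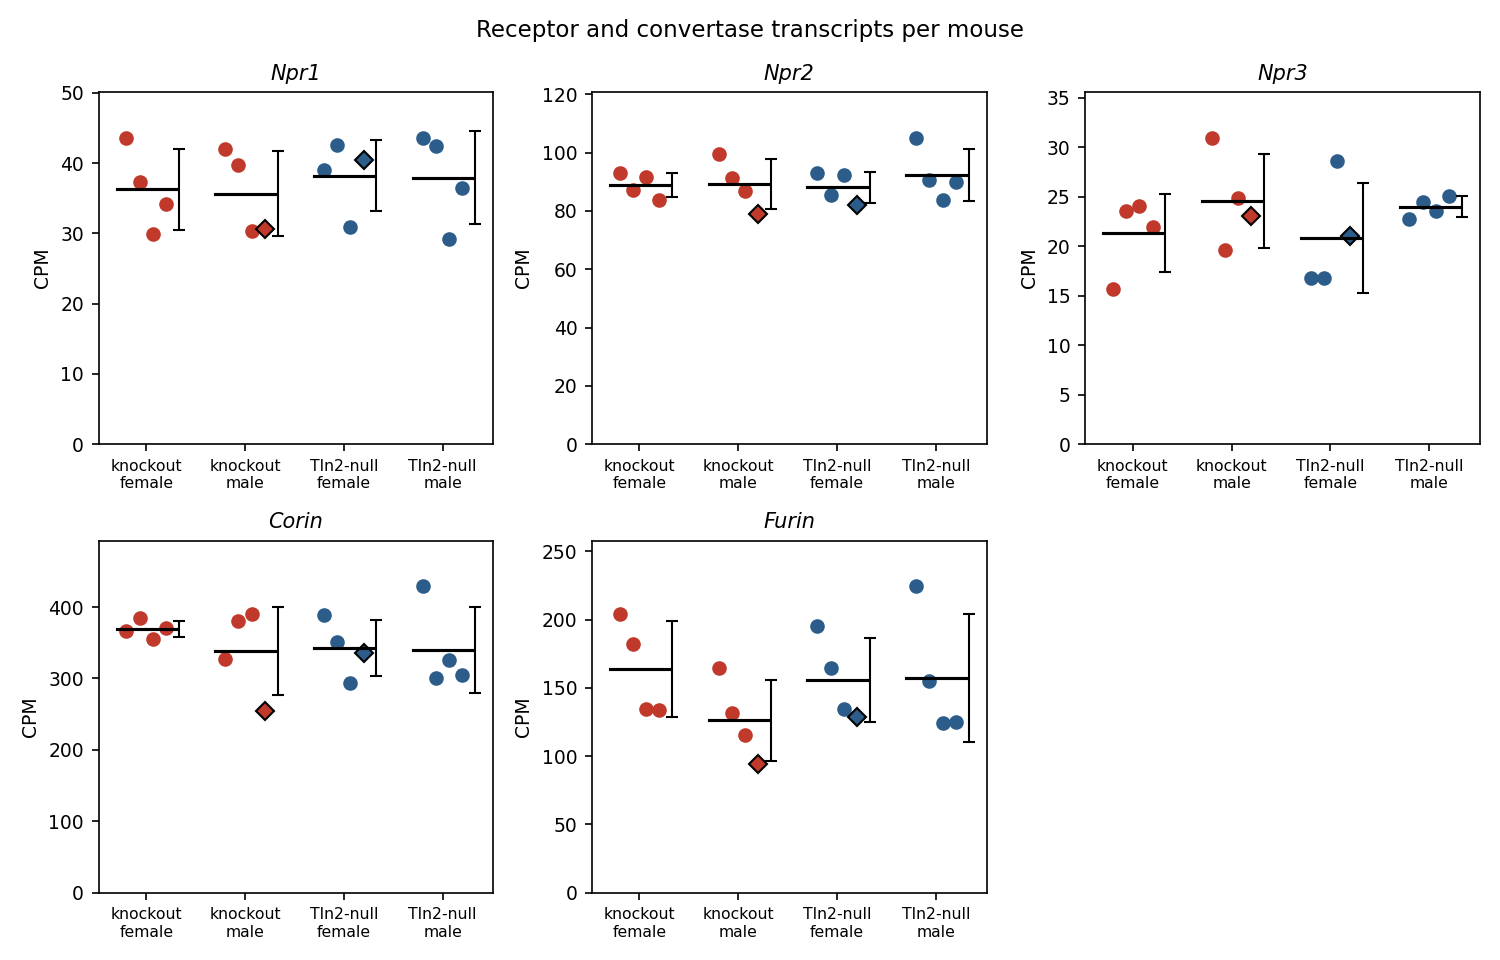
Npr1, Npr2, Npr3, Corin and Furin in each mouse, in CPM from 0, by genotype and sex (4 mice per column); lines are means and bars the SD. The knockout and Tln2-null columns overlap in all 5 panels, with Furin between 93.9 and 224 CPM.

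Of the 7 genes, 0 passed an adjusted p of 0.05 for genotype, where the background was 0 percent of the 13775 genes tested by edgeR, and 0 of 7 had an unadjusted p under 0.05, against 5.08 percent of all genes. The 8 knockout and 8 Tln2-null values overlapped for all 7, and were apart for 0.0436 percent of all genes. Fitted levels were higher in the knockout for 2 genes and lower for 5, with a median log2 fold change of -0.08, and 51.2 percent of all genes were lower. DESeq2 called 17 genes and limma-voom 11 for genotype, none of them among the 7. The precision differed between genes: the SE was 0.57 for Nppb and 0.06 for Npr2, and the median gene had 0.09.

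Between the sexes Nppa again had the log2 fold change of largest absolute size among the 7. It averaged 1067 ± 437 CPM in females and 782 ± 330 CPM in males (SD over 8 mice in each). The log2 fold change was 0.47 ± 0.26 (edgeR, unadjusted p = 0.0851, adjusted p = 0.9998). Without the 2 mice set apart by clock genes it was 0.65 ± 0.27 (edgeR, adjusted p = 0.999). Npr3 averaged 21.1 ± 4.47 CPM in females and 24.3 ± 3.21 CPM in males, a log2 fold change of -0.20 ± 0.12 (edgeR, unadjusted p = 0.104, adjusted p = 0.9998). In both genes the sexes overlapped. The other log2 fold changes were 0.18 ± 0.15 for Furin, 0.07 ± 0.09 for Corin, 0.02 ± 0.10 for Npr1, -0.04 ± 0.06 for Npr2 and -0.11 ± 0.57 for Nppb, which was -0.25 ± 0.44 without the 2 mice set apart by clock genes. Of the 7 genes 0 passed, where 0.0871 percent of all genes did, and 0 had an unadjusted p under 0.05, against 3.69 percent. The sexes overlapped for all 7, and were apart for 0.109 percent of all genes.

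The genotype difference was then set apart by sex. For Nppb, knockout females averaged 109 ± 46.9 CPM and Tln2-null females 277 ± 242 CPM, a log2 fold change of -1.34 ± 0.68, while knockout males averaged 265 ± 164 CPM and Tln2-null males 134 ± 100.2 CPM, a log2 fold change of 0.98 ± 0.67 (SD over 4 mice in each case). The female effect minus the male effect was -2.32 ± 0.96 (edgeR, unadjusted p = 0.0266, adjusted p = 0.980). It did not pass over all genes, of which 0 percent did, and 4.27 percent had an unadjusted p under 0.05. Without the 2 mice set apart by clock genes, which are a Tln2-null female and a knockout male, the difference was -1.003 ± 0.87, and adjusted p ran between 0.817 and 0.9999 over the alternatives tried.

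For Nppa the knockout fold change pointed down in both sexes, at -0.29 ± 0.37 in females and -0.61 ± 0.37 in males, with a difference of 0.31 ± 0.53. For Furin it was 0.07 ± 0.21 in females and -0.31 ± 0.21 in males, with a difference of 0.39 ± 0.29. For Corin, Npr1, Npr2 and Npr3 the difference between the sexes was 0.12 ± 0.18, 0.01 ± 0.21, 0.06 ± 0.12 and -0.0025 ± 0.25. None of these passed edgeR's test. Within females 0 of the 7 had an unadjusted p under 0.05, against 3.31 percent of all genes, and within males 0 of 7, against 6.07 percent.

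**Figure D3:**
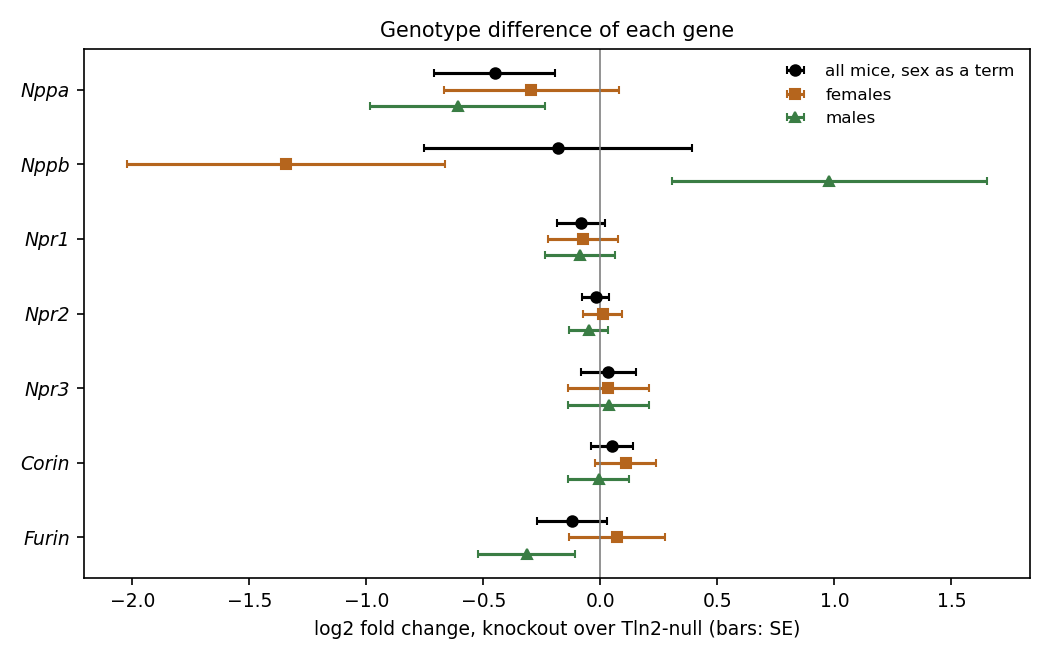
Log2 fold change, knockout over Tln2-null, with its SE for each of the 7 genes, in all 16 mice and in females and males apart (edgeR). Nppb stands at -1.34 in females and 0.98 in males with wide errors, and the receptors lie within 0.10 of 0.

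Furin, and less firmly Nppb and Npr2, shifted along the number in the sample titles, 1 to 18. The sources used here do not give the meaning of this number. Both genotypes and sexes are spread over it, but unevenly for genotype. Numbers 1 and 2 were Tln2-null mice and numbers 15, 16 and 18 were knockout mice, so number and genotype are partly confounded. The shift was tested after the values had been seen, as a linear term beside genotype and sex. In the order of those numbers, Furin was at 204, 182, 134 and 134 CPM in knockout females and 164, 132, 115 and 93.9 CPM in knockout males. In Tln2-null mice it was at 195, 165, 134 and 129 CPM in females and 224, 155, 124 and 125 CPM in males. Each of the 4 columns was highest at its earliest number. The fitted change was -0.0589 ± 0.00642 log2 units per step, -1.002 between numbers 1 and 18 (edgeR, adjusted p = 0.000305), where 6.34 percent of all genes passed and 3.39 percent were lower at later numbers. With this term in the model the genotype fold change of Furin was 0.08 ± 0.07 in place of -0.12 ± 0.15.

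Nppb changed the other way, by 0.15 ± 0.04 log2 units per step or 2.60 between numbers 1 and 18 (edgeR, adjusted p = 0.0401). Without the 2 mice set apart by clock genes the change was 0.09 per step and did not pass (adjusted p = 0.339), and the call was lost in 9 of the 16 fits that left out 1 mouse. Npr2 fell by 0.27 between numbers 1 and 18 (edgeR, adjusted p = 0.0420), a call lost in 12 of those 16 fits. Furin was called in all 16. Npr1 had a fitted change of -0.46 (adjusted p = 0.0650), Corin -0.30 (adjusted p = 0.223), Npr3 0.15 (adjusted p = 0.699) and Nppa 0.07 (adjusted p = 0.951) over the same span, and did not pass.

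**Figure D4:**
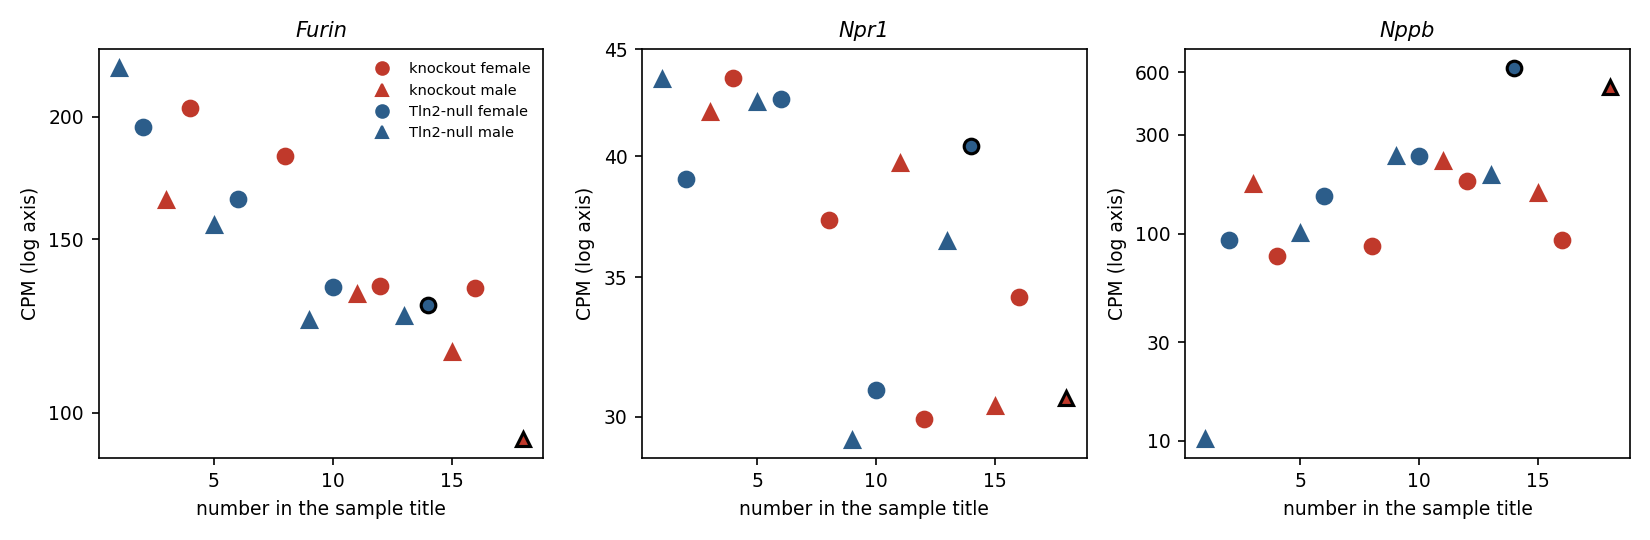
Furin, Npr1 and Nppb of each mouse, in CPM on a log axis, against the number in its sample title, by genotype (colour) and sex (shape); symbols with a black edge are the mice set apart by clock genes. Furin is 224 CPM at number 1 and 93.9 CPM at number 18, while Nppb is 10.2 CPM at number 1 and 507 CPM at number 18.

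Among the mice, several of the 7 genes varied together. Pearson's r of log2 CPM was computed for all 21 pairs with permutation tests of 100000 resamples, and 6 pairs had an adjusted p under 0.05. The share of such pairs among all genes tested was not computed. Neither this count nor a single r is therefore read as particular to these genes. Nppb and Furin, a hormone gene and the gene of a convertase that cuts its precursor, ran in opposite directions (r = -0.79, rho = -0.79, adjusted permutation p = 0.00378 for r and 0.00945 for rho, n = 16). The relation was -0.82 without the 2 mice farthest from the median Nppb, -0.81 within the knockout (permutation p = 0.0131) and -0.86 within the Tln2-null mice (permutation p = 0.00199). After a line on the title number had been removed from both genes, r was -0.61, and without the 2 mice set apart by clock genes it was -0.75. The r after the title line was not tested, and the p within each genotype was not adjusted. This pair passed after adjustment over all 16 mice and with DESeq2 size factors. It also passed in every setting that left out a single mouse, the clock-gene libraries or the females with Y-linked reads.

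Nppb was also inverse to Corin (r = -0.66, rho = -0.66, adjusted permutation p = 0.0273 and 0.0373), at -0.67 without the 2 farthest mice and -0.58 after the title line. Nppb and Npr2 had r = -0.70 with rho = -0.51 (adjusted permutation p = 0.0161 and 0.139). There r was -0.36 without the 2 farthest mice, so this relation rested on them, and -0.43 after the title line. Without the 2 mice set apart by clock genes r was -0.61 for Corin and -0.57 for Npr2, and neither passed (adjusted permutation p = 0.0568 and 0.144). For the pairs with Furin, the 2 mice left out were those farthest from the median of the other gene. Furin ran with Npr1 (r = 0.72, rho = 0.71, adjusted permutation p = 0.0161 and 0.0195), at 0.74 without the 2 farthest mice and 0.36 after the title line. Furin ran with Npr2 (r = 0.70, rho = 0.72, adjusted permutation p = 0.0161 and 0.0195), at 0.42 without the 2 farthest mice, between 0.59 and 0.76 with any 1 mouse left out, and at 0.10 after the title line. Furin and Corin had r = 0.63 with rho = 0.44 (adjusted permutation p = 0.0333 and 0.205), at 0.27 without the 2 farthest mice, so that r rested on them, and at 0.66 after the title line in all 16 mice. Nppa and Corin, also a hormone gene and the gene of a convertase that cuts its precursor, had r = -0.52 (rho = -0.59, adjusted permutation p = 0.117) and did not pass.

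The count of pairs depended on single mice: 1 pair, Nppb with Furin, was left without Tln2-null replicate 1 and again without knockout replicate 8, and 2 pairs, Nppb with Furin and Npr1 with Furin, were left without both mice set apart by clock genes.

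**Figure D5:**
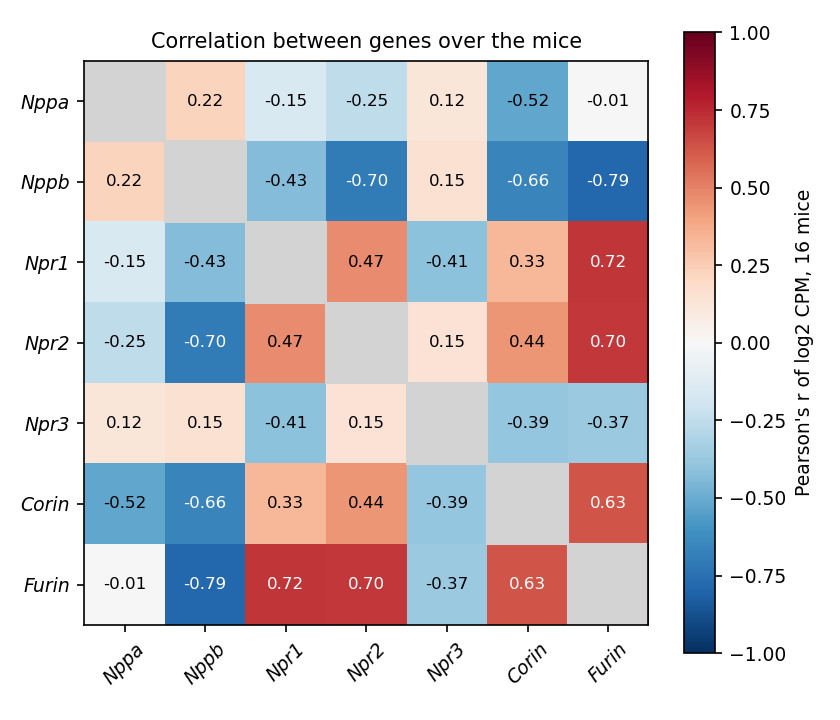
Pearson's r of log2 CPM over the 16 mice for each pair of the 7 genes, on a colour scale between -1 and 1. Nppb has its strongest negative values with Furin (-0.79), Npr2 (-0.70) and Corin (-0.66), and Furin its strongest positive values with Npr1 (0.72) and Npr2 (0.70).

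For each member the 3 genes of most similar pattern were taken by Pearson's r over the 16 libraries among 10711 genes with at least 5 CPM. The highest of so many values is large by selection, so these are descriptions with no test. Nppa was closest to Col8a1, a collagen VIII chain gene (r = 0.94), Pamr1 (0.91) and Serpinf1, which encodes the secreted factor PEDF (0.89). Nppb was closest to Tnfrsf12a, the receptor gene of the cytokine TWEAK (0.89), Slc16a1, a lactate and pyruvate transporter gene (0.89), and Tm4sf1 (0.87). Corin was closest to Hey2, a Notch-responsive repressor gene (0.90), Adgrf5 (0.85) and Rev1 (0.85), and Furin to Ppp1r13b (0.93), Brap (0.89) and Zc3h3 (0.89). Npr1 was closest to Fbrs (0.90) and Npr2 to Fntb, the farnesyltransferase beta subunit gene (0.93). Npr3 had lower values, among them Dcaf5 (0.80) and Edn3, which encodes endothelin 3 (0.79).

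Around the 7 genes, 0 of the other pathway genes tested passed over all genes for genotype. The peptide-degrading enzymes all had a higher fitted level in knockout ventricles, 3 of 3 with a median log2 fold change of 0.37, and 2 of 3 had an unadjusted p under 0.05, against 1.92 percent of all genes in that direction. Dpp4, a dipeptidyl peptidase that trims the B-type peptide, averaged 3.75 ± 0.74 CPM in knockout and 2.55 ± 0.42 CPM in Tln2-null ventricles, a log2 fold change of 0.56 ± 0.14 (edgeR, adjusted p = 0.375). Mme, which encodes neprilysin, averaged 21.9 ± 4.84 CPM in knockout and 17.1 ± 4.49 CPM in Tln2-null ventricles, a log2 fold change of 0.37 ± 0.14 (edgeR, adjusted p = 0.904). Ide, the insulin-degrading enzyme, averaged 227 ± 41.3 CPM in knockout and 201 ± 42.6 CPM in Tln2-null ventricles, a log2 fold change of 0.18 ± 0.14 (edgeR, adjusted p = 0.942). None of the 3 passed the test and their ranges overlapped. All 3 had a higher fitted level in the knockout within each sex. In females 2 had an unadjusted p under 0.05, against 3.31 percent of all genes in either direction, and in males 0, against 6.07 percent. Mme was also lower in females than in males, with a log2 fold change of -0.42 (edgeR, unadjusted p = 0.0080, adjusted p = 0.9998).

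Of the related peptide and convertase genes, Nppc and Ostn, which encode C-type natriuretic peptide and osteocrin, were too low to test. Nppc had 0 counts in all knockout libraries, which allows up to the floor of each library. In Tln2-null ventricles Nppc averaged 0.033 ± 0.069 CPM, a mean also under the floor. The convertases Pcsk5, Pcsk6 and Pcsk7 had fitted levels a little lower in the knockout, with log2 fold changes of -0.22 ± 0.15, -0.0051 ± 0.10 and -0.03 ± 0.05. Of the genes of cyclic GMP synthesis and action, 15 of 18 listed symbols were in the table. The others, Gucy1a3, Gucy1b3 and Irag1, are alternative symbols of Gucy1a1, Gucy1b1 and Mrvi1, which were tested. Of the 15, 12 had a lower and 3 a higher fitted level in the knockout (median log2 fold change -0.10, against -0.0027 over all genes, of which 51.2 percent were lower). Pde1a, a phosphodiesterase gene, averaged 10.51 ± 2.91 CPM in knockout and 14.2 ± 3.59 CPM in Tln2-null ventricles (log2 fold change -0.45 ± 0.16, edgeR adjusted p = 0.808), and was the 1 gene of the 15 with an unadjusted p under 0.05, against 5.08 percent of all genes. The subunits of the nitric oxide receptor, Gucy1a1 and Gucy1b1, had -0.16 ± 0.09 and -0.10 ± 0.07, and Mrvi1, a substrate of cyclic GMP-dependent kinase, -0.14 ± 0.09 (adjusted p = 0.935 each).

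The 15 transcription factor genes known to act at Nppa and Nppb were split between 8 with higher and 7 with lower fitted levels in the knockout, with a median log2 fold change of 0.02 and 0 with an unadjusted p under 0.05 in edgeR. Mef2a had 0.13 ± 0.08, Rest, a repressor of both hormone genes, 0.11 ± 0.13, Nkx2-5 -0.11 ± 0.10 and Tbx5 -0.14 ± 0.17. In the difference between the sexes, 4 of the 15 had an unadjusted p under 0.05, against 4.27 percent of all genes, and 0 passed after adjustment. These were Jun at -0.87 ± 0.29, Fos at -1.98 ± 0.78, Gata4 at -0.35 ± 0.16 and Hand2 at 0.62 ± 0.29, females minus males (edgeR, adjusted p = 0.980 each). Hand2 had the opposite sign to Nppb and the others the same sign. Fos was low and variable, at 0.95 to 5.70 CPM in knockout and 0.70 to 9.05 CPM in Tln2-null mice. Values without the 2 mice set apart by clock genes are not given for these 4 genes. They were named after their values had been seen.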

How the data were processed

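Left-ventricular RNA of 16 mice was sequenced. TRIzol extraction, column purification and a strand-marking library kit were used, per the labels' protocols. DRAGEN, DESeq2 and mm10 are named in the submitters' processing notes without versions or roles, and the sources used here give neither the annotation nor the strand setting. The authors deposited whole counts per gene symbol (24982 entries, 5760 at 0 throughout) and a normalized signal for 16405 genes. Multiplied by 1 size factor per library, 100 percent of the deposited signal values were whole to within 0.001. Symbols turned into dates were restored for 21 of 26 entries by matching counts. Of 120 library pairs 0 were identical.

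Groups and sexes came from the labels. Replicate numbers 1 to 8 within a genotype were assigned here in record order. The members, lists and tests were chosen with earlier results of these data known. The named genes are the 7 members, up to 4 genes per pathway list with the lowest unadjusted p for genotype, and the 3 of most similar pattern per member, of which some are not reported here. The title-number test, and the fits for sex, its interaction and the title number without the libraries set apart by clock genes, were added after seeing the data.

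Counts were tested with edgeR 4.0.16 (R 4.3.3), after filterByExpr and TMM scaling, by quasi-likelihood fits over all 16 libraries with genotype and sex, or 1 mean per genotype and sex, and Benjamini-Hochberg adjustment over 13775 genes at 0.05. The SE was worked back from the F statistic and is approximate. Log2 CPM used a prior count of 2. Alternatives were DESeq2 1.42.0, limma 3.58.1 (voom, and log2 of the deposited signal plus 1), other filters and scalings, the title number as covariate, and leaving out each mouse, the 4 females with Y-linked reads (over 1 percent of the mean in males) or the libraries set apart by clock genes (Arntl over 3 times and Ciart under 0.5 times the median). The edgeR procedure was tested on simulated data. Promoter windows are RefSeq's, and positions and exon lengths GENCODE M21's. Counting intervals and floors cover counting error only.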

Additional observations from a re-analysis of the deposited data

Results flagged for a closer look

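Gaps are on the log2 scale. In Tln2-null males, Nppa of replicate 1 (421 CPM) lay apart from the other 3, with a gap to the next mouse of 0.946 of the group's range. The same mouse was the lowest of all 8 Tln2-null mice for Nppb (10.2 CPM), with a gap of 0.535 of the range. Corin of knockout replicate 8 (255 CPM) was the lowest of the 8 knockout mice, with a gap of 0.587 of the range, and this is one of the mice set apart by clock genes. The comparison of the lowest or highest sample with its nearest neighbour was made 84 times and chance marks about 1 group in 20, so the number of such mice is not itself a result.

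The genotype fold change of Nppb had opposite signs in females and males, with a difference of -2.32 log2 units whose unadjusted p was under 0.05. It did not pass over all genes (edgeR, adjusted p = 0.980). The highest Nppb values, in knockout replicate 8 and Tln2-null replicate 8, were from the mice with high Arntl and low Ciart, and their part in this difference is given by the value without them, -1.003.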

How the results depend on the processing

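For genotype, edgeR called 0 genes; the number was 1 with no filter on low counts, 11 with limma-voom, 17 with DESeq2, 2 with limma on the deposited normalized values, 5 without the clock-gene libraries, and 0 to 7 when 1 mouse was left out. For sex it was 12 with edgeR, 21 with DESeq2 and 10 to 14 with 1 mouse left out. The correlated pairs numbered 6, 2 without the clock-gene libraries, and 1 to 7 with 1 mouse left out.

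Signs turned only for log2 differences under 0.2 in size and weak correlations. Genotype: Nppb 0.23 with limma on deposited values and, leaving out the 4 females with Y-linked reads, 0.41, with Npr1 at 0.0080 and Npr3 at -0.10; with the title number as covariate, Npr1 0.0026, Npr2 0.034 and Furin 0.080. Sex: Npr1 -0.031 without the clock-gene libraries. Females minus males: Npr1 -0.068 (title number), -0.042 (limma-voom) and -0.019 (without the clock-gene libraries); Npr2 -0.020 and Corin -0.00083 (without the clock-gene libraries); Npr3 0.0035 (no filter), 0.017 (title number) and 0.15 (limma-voom). The log2 ratio of Npr3 to Npr1 was -0.035 leaving out those 4 females. The causes were not tested.

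With 1 mouse left out, the genotype fold change ran between -0.49 and 0.26 for Nppb, -0.044 and 0.016 for Npr2, and -0.025 and 0.13 for Npr3. The sex fold change ran between -0.56 and 0.20 for Nppb and -0.034 and 0.057 for Npr1. The difference between the sexes ran between -0.084 and 0.12 for Npr1, -0.00065 and 0.12 for Npr2, -0.10 and 0.20 for Npr3, and -0.0091 and 0.19 for Corin. Correlations ran between -0.10 and 0.23 for Nppa with Furin, -0.14 and 0.38 for Nppa with Nppb, -0.049 and 0.27 for Nppa with Npr3, and -0.049 and 0.26 for Npr2 with Npr3. The change of Nppa per title number ran between -0.016 and 0.018.

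No paired analysis was possible because the replicate numbers were assigned here in record order and tie no mice together. With 8 mice per genotype the SE of the Nppb fold change was 0.57, and differences of several times the median gene's SE of 0.09 did not pass for this gene.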
